A study of Mus musculus with 6 samples.

Results

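The transforming growth factor beta (TGF-beta) genes described here are the ligands Tgfb1, Tgfb2 and Tgfb3, the receptors Tgfbr1, Tgfbr2 and Tgfbr3, and the latent TGF-beta binding proteins Ltbp1, Ltbp2, Ltbp3 and Ltbp4. They were taken by symbol, and all 10 were found among the 33696 genes of the count matrices. They were measured by droplet single-cell RNA sequencing of the genioglossus, the main muscle that protrudes the tongue, in male mice. The OSA-4W group was collected at week 4 of a model of obstructive sleep apnea (OSA), and was set against a control group, which makes 3 libraries in each group. Both groups are primary tissue of batch 1. Strain, age, the way the model was made and whether a library is 1 animal or a pool are not given in the sources used. The p-values therefore measure spread between libraries only. With 1 control library analysed, that spread is the spread between the OSA libraries. Counts of OSA libraries 1, 2 and 3 and of control library 2 were used. The matrices of 2 control libraries were not analysed here.

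TGF-beta ligands are made as dimers that stay bound to their own propeptide. A latent TGF-beta binding protein attaches this latent complex to the extracellular matrix, and integrins, proteases or thrombospondin then free the ligand. The free ligand binds the type II receptor encoded by Tgfbr2, which recruits the type I receptor encoded by Tgfbr1, and the pair passes the signal to SMAD proteins. Tgfbr3 encodes betaglycan, a co-receptor without kinase activity that presents ligand, Tgfb2 above all. In skeletal muscle the pathway is known for matrix deposition by fibroblasts and for holding back the differentiation of satellite cells, the muscle stem cells.

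The ligand genes Tgfb1 and Tgfb2 were highest in different cell classes, as described below. The 100 bases before their RefSeq transcription starts (build GRCm38.p6) differ in composition, and a link between composition and level was not tested. The 2 windows are shown so that both ligands' start regions can be compared, and capitals mark a TATAAA match, the letters of a TATA box.
Tgfb1, chr7:25686902-25687001, plus strand: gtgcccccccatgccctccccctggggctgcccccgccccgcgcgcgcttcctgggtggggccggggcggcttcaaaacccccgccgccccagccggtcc
Tgfb2, chr1:186705990-186706089, minus strand: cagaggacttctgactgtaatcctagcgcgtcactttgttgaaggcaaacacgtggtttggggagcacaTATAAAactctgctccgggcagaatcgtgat
The Tgfb1 window was 82.0% G or C and held no TATAAA on either strand. The Tgfb2 window was 49.0% G or C, against a median of 55.0% over 32851 promoter windows of the same length, and its TATAAA began 31 bases before the start. TATAAA on either strand was found in 5.561% of those windows. These are matches of letters only.

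Between 12618 and 15743 barcodes per library held 70217449 to 82184913 UMIs (unique molecular identifiers, each counted as 1 transcript). After filters 15218, 12229 and 13736 cells were kept in OSA libraries 1, 2 and 3, and 13275 in control library 2. Pairs of libraries shared 52 to 67 barcode sequences. Classes were named from marker transcripts and are written with "-like". Although the labels name skeletal muscle cells, endothelial-like cells were the largest class at 47.4%, 37.3% and 30.5% of OSA cells, against 43.8% of control cells. At the resolution used no cluster was named from myofibre markers, while Pax7, a satellite cell marker, was among the leading genes of the satellite-like cluster. Fibroblast-like cells followed at 14.6%, 20.7% and 25.6% of OSA cells and 18.7% of control cells. Macrophage-like cells were 2.58%, 3.31% and 11.5% of OSA cells and 1.53% of control cells. Unnamed clusters held 13.1% of all kept cells. OSA library 3 stood apart in 2 ways that touch results below. It held 933 of the 1059 barcodes of a fibroblast-like cluster led by Saa3, and most cells of several macrophage-like clusters in which control library 2 had almost none.

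Levels are given as CPM, the UMIs of a gene per 1000000 UMIs of the summed class. They are compared between classes and libraries, not between genes. The 10 genes were left out of the variable genes used for clustering, so their levels did not set the classes. Of the ligands, Tgfb1, the isoform best known from immune cells, was high in macrophage-like cells at 208, 246 and 218 CPM in OSA libraries 1, 2 and 3, against 340 CPM in control library 2. T and NK-like cells had 188, 299 and 217 CPM in the OSA libraries and 266 CPM in the control. Endothelial-like cells had 171, 184 and 159 CPM in the OSA libraries and 205 CPM in the control. Lymphatic endothelial-like cells had 183 ± 26.4 CPM in OSA (SD, n = 3) and 171 CPM in control. T and NK-like cells overlapped with each of the other 3 classes, macrophage-like cells lay above both endothelial-like classes in range, and all 4 lay above every other class. The lowest mean was in Schwann-like cells, at 31.9 ± 9.37 CPM in OSA and 23.1 CPM in control, a range that overlapped with satellite-like cells.

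Tgfb2, a ligand known from mesenchymal tissue, had a different order. Fibroblast-like cells had 136, 120 and 92.4 CPM in the OSA libraries and 140 CPM in the control, and tenocyte-like cells had 141, 100 and 103 CPM against 117 CPM. Satellite-like cells (OSA 95.1 ± 21.2 CPM, control 87.8 CPM), mural-like cells (OSA 90.3 ± 15.6 CPM, control 94.9 CPM) and lymphatic endothelial-like cells (OSA 65.6 ± 13.1 CPM, control 90.3 CPM) overlapped with the class above them in this order. Below a gap came Schwann-like cells at 22.0 ± 4.70 CPM in OSA and 24.2 CPM in control. Macrophage-like cells had 6.82 ± 1.84 CPM in OSA and 6.84 CPM in control. Their Tgfb2 level was 6.46%, 5.36% and 5.63% of the fibroblast-like level in the OSA libraries and 4.90% in the control. The median fibroblast marker stood at 2.51%, 4.13% and 3.77% of its fibroblast-like level in OSA macrophage-like cells and 2.0% in control ones.

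Tgfb3 was highest in tenocyte-like cells, at 123, 120 and 144 CPM in the OSA libraries and 159 CPM in the control. Mural-like cells, which hold pericytes and smooth muscle, had 78.0, 125 and 102 CPM in OSA and 110 CPM in control, overlapping with the tenocyte-like class. Lymphatic endothelial-like cells (OSA 74.1 ± 2.80 CPM, control 65.3 CPM) and fibroblast-like cells (OSA 53.0 ± 7.65 CPM, control 54.1 CPM) followed, each apart from the next class. Macrophage-like cells were at 2.83 ± 1.18 CPM in OSA and 6.16 CPM in control. So Tgfb2 and Tgfb3 had the same upper 5 classes in a different order, and those of Tgfb1 were mostly other classes. Lymphatic endothelial-like cells stood in the upper 5 classes for all 3 ligands.

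**Figure D1:**
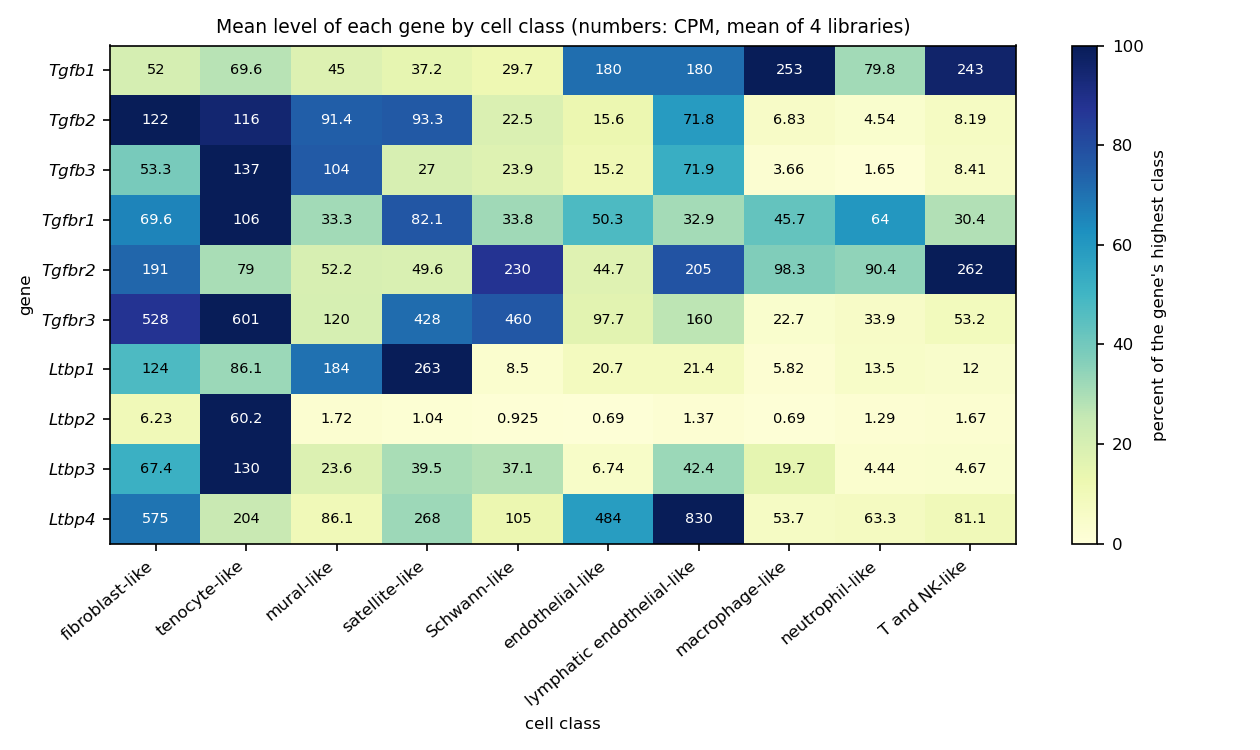
Mean level of the 10 genes in 10 cell classes. Rows are genes, columns are classes, numbers are CPM averaged over the 3 OSA libraries and the control library, and colour gives the percent of the gene's own highest class, so that Tgfb1 is dark in macrophage-like cells (253 CPM), Tgfb2 in fibroblast-like cells (122 CPM) and Tgfb3 in tenocyte-like cells (137 CPM).

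**Figure D2:**
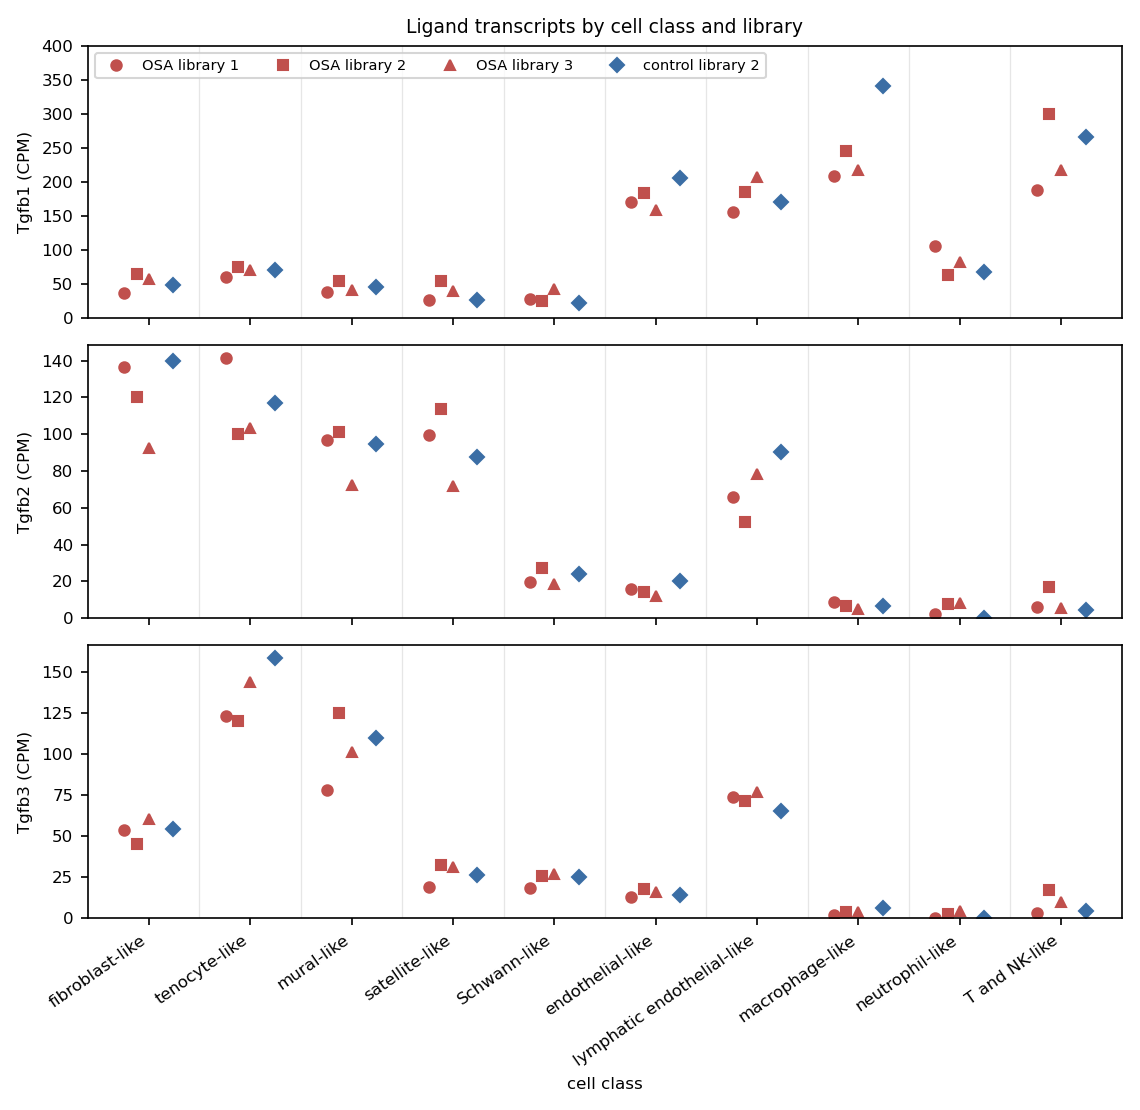
Ligand levels by class (x axis) in CPM (y axis, linear from 0). Red points are OSA libraries 1 to 3 and the blue diamond to their right is the control library; for Tgfb1 in macrophage-like cells the 3 OSA points lie between 208 and 246 CPM, under the control at 340 CPM.

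Levels per class and numbers of cells together set where a library's ligand transcripts were. Endothelial-like cells held 54.0% (95% exact binomial interval 52.9 to 55.1), 39.9% (38.9 to 41.0) and 25.05% (24.1 to 26.0) of all Tgfb1 UMIs in OSA libraries 1, 2 and 3, and 51.8% (50.7 to 52.9) in the control. Macrophage-like cells held 8.71%, 7.09% and 28.6% in the OSA libraries and 6.01% in the control. OSA library 3 was the high one, with 1573 macrophage-like cells against 392 and 405 in the other OSA libraries and 203 in the control. Fibroblast-like cells held 50.8%, 59.0% and 64.7% of Tgfb2 UMIs in OSA and 57.8% in control, and 36.2%, 33.5% and 52.0% of Tgfb3 UMIs in OSA and 38.5% in control. These intervals cover counting error only.

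**Figure D3:**
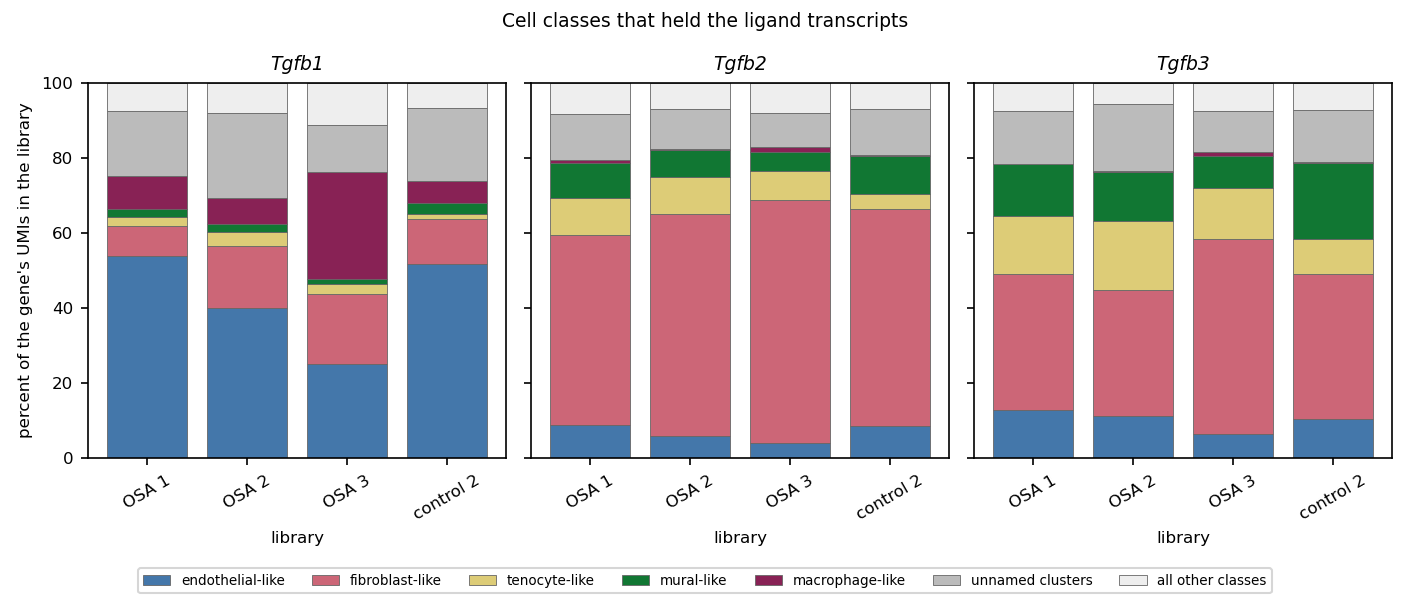
Share of each ligand's UMIs held by each class (stacked bars, percent of the gene's UMIs in a library; OSA libraries 1 to 3, then control library 2). Endothelial-like and macrophage-like cells held 25.05% and 28.6% of Tgfb1 in OSA library 3, against 51.8% and 6.01% in the control.

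Within the endothelial-like class Tgfb1 and Tgfb2 had unlike distributions. The endothelial cluster led by Trim69 and Iigp1 had 220, 256 and 217 CPM of Tgfb1 in the OSA libraries and 295 CPM in the control. The cluster led by Dipk2b and Slc28a2 had 95.2, 105 and 111 CPM in OSA and 115 CPM in control, so the 2 clusters did not overlap. Tgfb2 was instead highest in the cluster led by Nebl, Sema3g and Hey1, at 35.6, 30.5 and 30.1 CPM in OSA and 51.7 CPM in control. It was at 6.36, 6.74 and 7.77 CPM in OSA and 9.29 CPM in control in the Trim69-led cluster. Within the mural-like class Tgfb2 was higher in smooth muscle-like cells (121, 123 and 81.0 CPM in OSA, 109 CPM in control) than in pericyte-like cells (22.6, 46.7 and 37.5 CPM in OSA, 35.1 CPM in control).

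Among the receptors, Tgfbr1 was the most evenly spread. Its mean over the 4 libraries was 106 CPM in tenocyte-like cells and 30.4 CPM in T and NK-like cells, and every class overlapped with the next in the order. Tgfbr2 differed more between classes. T and NK-like cells (249, 282 and 223 CPM in OSA, 296 CPM in control), Schwann-like cells (245, 247 and 215 CPM in OSA, 213 CPM in control), lymphatic endothelial-like cells (OSA 204 ± 19.4 CPM, control 207 CPM) and fibroblast-like cells (OSA 196 ± 12.4 CPM, control 176 CPM) lay above all others. Endothelial-like cells had the lowest mean, at 45.9, 44.9 and 44.1 CPM in OSA and 44.2 CPM in control, within the ranges of satellite-like and mural-like cells. Blood and lymphatic endothelial-like cells therefore did not overlap for this receptor. Myelinating Schwann-like cells carried 294, 351 and 266 CPM of Tgfbr2 in OSA and 265 CPM in control, while non-myelinating ones carried 137, 108 and 125 CPM in OSA and 99.5 CPM in control.

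The co-receptor gene Tgfbr3 was highest in tenocyte-like cells (689, 506 and 584 CPM in OSA, 624 CPM in control) and fibroblast-like cells (564, 503 and 481 CPM in OSA, 562 CPM in control), whose ranges overlapped. Schwann-like cells (OSA 461 ± 6.38 CPM, control 457 CPM) and satellite-like cells (OSA 417 ± 33.0 CPM, control 461 CPM) came next. Below a wide gap were lymphatic endothelial-like (OSA 168 ± 47.9 CPM, control 135 CPM), mural-like (OSA 121 ± 3.96 CPM, control 116 CPM) and endothelial-like cells (OSA 101 ± 7.48 CPM, control 89.0 CPM). Macrophage-like cells had 26.2 ± 3.57 CPM in OSA and 12.3 CPM in control.

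The binding proteins other than that of Ltbp2 anchor the latent ligand. Ltbp1 and Ltbp4 were each highest in a class of their own, while Ltbp2 and Ltbp3 were both highest in tenocyte-like cells. Ltbp1, which binds latent complexes of all 3 ligands, was highest in satellite-like cells (269, 289 and 203 CPM in OSA, 291 CPM in control) and mural-like cells (211, 213 and 149 CPM in OSA, 162 CPM in control). Fibroblast-like cells had 123 ± 25.2 CPM in OSA and 128 CPM in control. Inside the mural-like class the pericyte-like cells had 374, 382 and 305 CPM in OSA and 262 CPM in control, above smooth muscle-like cells at 159, 145 and 111 CPM in OSA and 140 CPM in control. Every class below the tenocyte-like one had at most 29.4 CPM in any library.

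Ltbp2, whose protein is a matrix component that does not bind latent TGF-beta, had its highest level in tenocyte-like cells, with 64.0, 54.4 and 69.5 CPM in OSA and 53.1 CPM in control. They held 54.0%, 62.1% and 33.7% of its UMIs in the OSA libraries and 50.3% in the control. Fibroblast-like cells, which are more numerous, held 31.1%, 27.2% and 48.9% in OSA and 27.2% in control. The level in fibroblast-like cells was next, at 7.53 ± 3.06 CPM in OSA and 2.35 CPM in control. Ltbp3, which also carries latent ligand, was highest in tenocyte-like cells too (122, 129 and 169 CPM in OSA, 101 CPM in control), followed by fibroblast-like cells (OSA 73.2 ± 17.8 CPM, control 49.96 CPM). Ltbp4, which serves elastic fibre assembly as well as Tgfb1 storage, had an order of its own. Lymphatic endothelial-like cells had 684, 787 and 1056 CPM in OSA and 792 CPM in control, above fibroblast-like cells (OSA 578 ± 72.0 CPM, control 567 CPM) and endothelial-like cells (OSA 494 ± 84.2 CPM, control 454 CPM). In endothelial-like cells Ltbp4 was thus among the upper 3 classes, while Ltbp1, Ltbp2 and Ltbp3 had at most 28.7 CPM there in any library.

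OSA was then set against control within each class, with edgeR's quasi-likelihood test on summed counts and Benjamini-Hochberg adjustment over all genes of the class, at an adjusted p of 0.05. With 1 control library, that library is assumed to vary like the OSA libraries. None of the 10 genes passed in any of the 7 classes with at least 100 cells per library (0 of 67 gene-by-class tests of 70 possible, the other 3 being Ltbp2 at too few counts). In the same fits 0.224% of all 94879 gene-by-class tests passed, so 0 of 67 is near the background. DESeq2 also called 0 of 67, with 0.414% of all tests called. At an unadjusted p under 0.05 edgeR had 8 of 67 (11.9%, against 6.13% of all tests) and DESeq2 had 7 of 67 (10.4%, against 3.48%). All 3 OSA libraries lay above the control in 21 of 67 pairs (31.3%, against 26.2% of all tests) and below it in 10 of 67 (14.9%, against 26.0%). In the 3 classes with 30 to 100 cells in the smallest library, 0 of 21 tests passed, against 1.01% of all tests by edgeR, and 0 had an unadjusted p under 0.05. DESeq2 called 0 of 21 there as well, against 0.226%. In 6 sub-classes 0 of 57 passed, against 0.0926%, and 3 had an unadjusted p under 0.05 (5.26%, against 4.4% of all tests).

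By class, the share of all genes called differed widely beside these counts of 0. It was highest in T and NK-like cells, at 3.08% by edgeR and 0.698% by DESeq2, and in macrophage-like cells, at 1.46% by edgeR and 2.51% by DESeq2. EdgeR called 0.0308% of genes in mural-like, 0.0907% in satellite-like and 0.0157% in tenocyte-like cells, and DESeq2 called 0.0308%, 0.0725% and 0.0236%. In Schwann-like cells DESeq2 called 0.0236% and in lymphatic endothelial-like cells 0.0306%. Among fibroblast-like sub-classes edgeR called 0.102% of genes in adventitial and 0.0793% in interstitial cells. The shares were 0.265% in myelinating and 0.0195% in non-myelinating Schwann-like cells, 0.0501% in pericyte-like cells and 0.0331% in smooth muscle-like cells.

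**Figure D4:**
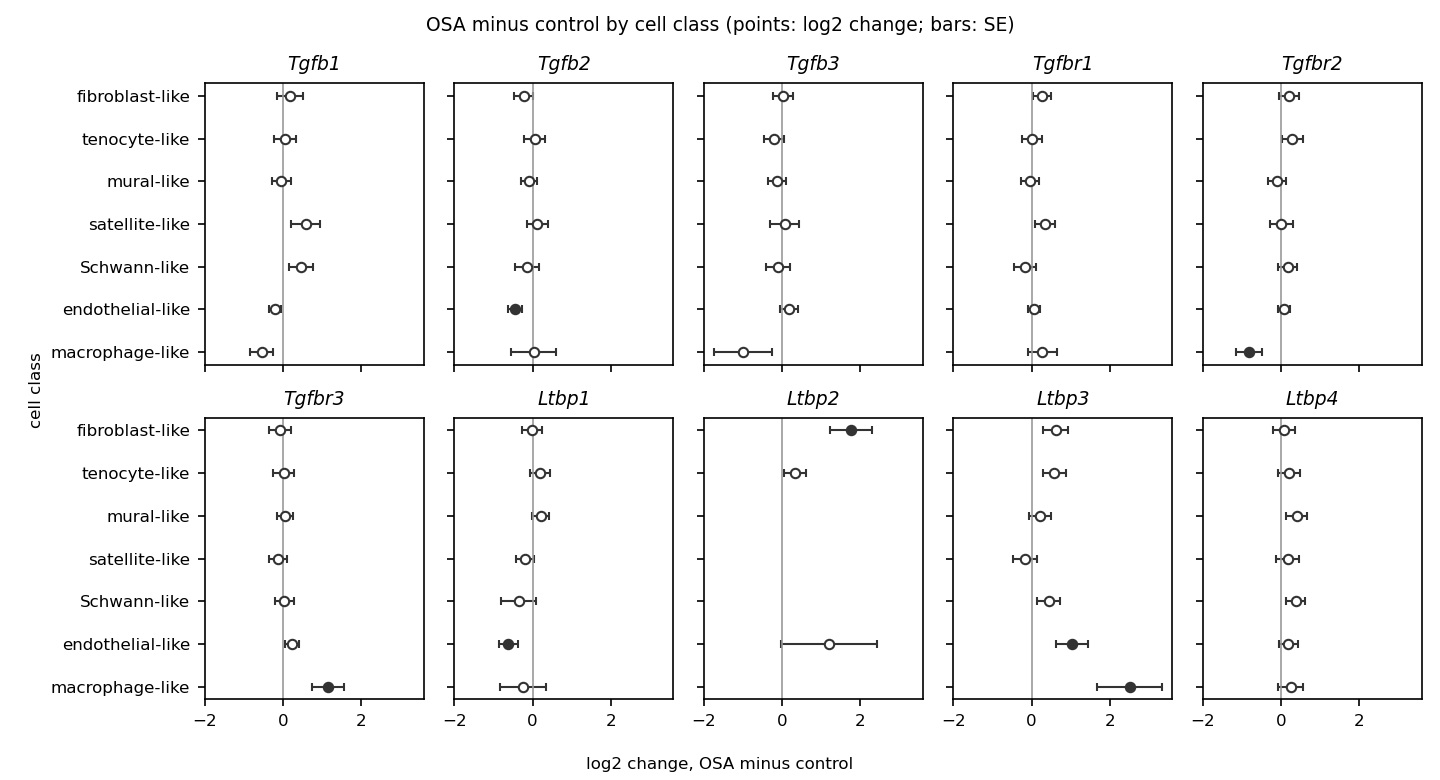
Log2 change, OSA minus control, of the 10 genes (panels) in 7 classes (y axis). Points are edgeR estimates, bars their standard errors, and filled points have an unadjusted p under 0.05; Ltbp2 is drawn only where it was tested and the control had UMIs. The filled points farthest from 0 are Ltbp3 in macrophage-like cells at 2.51 and Ltbp2 in fibroblast-like cells at 1.76, and no point passed the adjusted threshold.

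No ligand passed the adjusted threshold in a larger class. Values in these comparisons are CPM scaled by TMM, edgeR's correction for composition. Tgfb1 in macrophage-like cells had 206, 235 and 242 scaled CPM in the OSA libraries and 331 in the control, a log2 difference of -0.54 ± 0.29 (SE). All 3 OSA values lay under the control, and the edgeR adjusted p was 0.380. In the Folr2-led macrophage-like cluster, present in every library, Tgfb1 had 299, 304 and 279 CPM in OSA and 331 CPM in control, and in the Lyz2-led cluster, with 0 control cells, it had 183, 253 and 223 CPM in OSA. In the other 6 larger classes the log2 difference of Tgfb1 lay between -0.21 and 0.58. Tgfb2 in endothelial-like cells had 15.4, 14.2 and 13.0 scaled CPM in OSA and 19.4 in control (log2 difference -0.45 ± 0.19, edgeR adjusted p = 0.953). Its log2 difference was between -0.23 and 0.12 in the other larger classes. Tgfb3 had log2 differences between -0.20 and 0.18 in 6 of 7 classes, and -0.995 ± 0.74 in macrophage-like cells, where it rested on 5, 9 and 39 UMIs in OSA and 9 in control. Summed over all kept cells, which mixes level per cell with cell makeup, Tgfb1 had 102, 121 and 129 scaled CPM in OSA and 118 in control (log2 difference -0.01 ± 0.21).

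Among the receptors, Tgfbr1 had log2 differences between -0.16 and 0.34 in the 7 classes. Tgfbr2 in macrophage-like cells had 84.4, 106 and 55.6 scaled CPM in OSA and 143 in control, a log2 difference of -0.82 ± 0.34 (edgeR adjusted p = 0.258). The OSA values were all lower, and leaving out an OSA library gave differences of -1.05 to -0.60. Levels differed between clusters. In the Folr2-led macrophage-like cluster, which held 136 of the 203 control cells, Tgfbr2 stood at 214, 224 and 186 CPM in OSA and 202 CPM in control, so OSA values lay on both sides of the control. In the Lyz2-led cluster it was 25.9, 27.1 and 26.2 CPM in OSA, and in the Ms4a7-led cluster 71.2, 28.1 and 40.8 CPM, and the control had 0 cells in both. Over the macrophage-like clusters with at least 10 control cells, an alternative chosen after the data were seen, the log2 difference was -0.06 (edgeR adjusted p = 0.988). In the other 6 larger classes Tgfbr2 had log2 differences between -0.10 and 0.29.

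Tgfbr3 in macrophage-like cells had 22.4, 28.4 and 28.9 scaled CPM in OSA and 11.98 in control (log2 difference 1.15 ± 0.41, edgeR adjusted p = 0.185). Leaving out an OSA library gave differences of 1.07 to 1.25, and over clusters with at least 10 control cells the log2 difference was 1.12. Fibroblast transcripts moved with Tgfbr3. Tgfbr3 stood at 4.01%, 5.92% and 5.42% of its fibroblast-like level in the OSA libraries and 2.19% in the control. The summed level of all 7 fibroblast markers in these cells was 449, 572 and 614 CPM in OSA and 276 CPM in control, with 0 of the 7 at 0 in any library. Their part in the result was not tested. In the other 6 larger classes Tgfbr3 had log2 differences between -0.13 and 0.24.

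Of the binding proteins, Ltbp2 in fibroblast-like cells had 6.51, 4.82 and 11.9 scaled CPM in OSA and 2.29 in control, from 119, 107 and 315 UMIs in OSA and 47 in control. The log2 difference was 1.76 ± 0.54 (unadjusted p = 0.00856, edgeR adjusted p = 1). All OSA libraries were higher, library 3 the most. The difference was 1.86 without OSA replicate 1, 2.01 without OSA replicate 2 and 1.30 without OSA replicate 3. The Saa3-led cluster, whose other leading genes include Timp1 and Mmp3, had 38.5, 30.9 and 23.1 CPM of Ltbp2 in the OSA libraries. Control library 2 had 7 cells and 0 Ltbp2 UMIs there. Interstitial fibroblast-like cells had 5.13, 5.71 and 5.45 CPM in OSA and 3.58 CPM in control, and adventitial ones 2.19, 2.24 and 1.03 CPM in OSA and 0.709 CPM in control. Over fibroblast-like clusters with at least 10 control cells the log2 difference was 0.77 (edgeR adjusted p = 1.00). The summed level of the 7 tenocyte markers in fibroblast-like cells was 722, 572 and 728 CPM in OSA and 410 CPM in control, with none at 0, and its part in the result was not tested. In tenocyte-like cells Ltbp2 itself had a log2 difference of 0.33 ± 0.28, and in endothelial-like cells 1.20 ± 1.23, from 9, 5 and 25 UMIs in OSA and 7 in control.

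Ltbp2 in mural-like cells was counted at 17, 1 and 8 UMIs in the OSA libraries and 0 UMIs in the control. Against a floor of 3 UMIs in the control library the pooled OSA level was at least 4.28-fold higher, and the edgeR adjusted p was 0.683. OSA library 1 held 17 of the 26 OSA UMIs, and OSA library 2, at 0.322 scaled CPM, lay under the floor of 0.579 CPM. With the mixed barcodes kept in the class, an alternative chosen after the data were seen, the fitted log2 difference was 1.24 (edgeR adjusted p = 0.999). All of these UMIs were in smooth muscle-like cells. The tenocyte markers summed to 113, 165 and 155 CPM in OSA mural-like cells and 94.8 CPM in control ones, and their part was not tested. Over all kept cells Ltbp2 had 4.81, 5.52 and 9.43 scaled CPM in OSA and 2.46 in control (log2 difference 1.42 ± 0.48, edgeR adjusted p = 0.991). In that sum 0.0% of 20888 genes were called by edgeR (659 at an unadjusted p under 0.05) and 0.637% by DESeq2, none of them among the 10.

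Ltbp3 lay above the control in all 3 OSA libraries in 5 of the 7 larger classes, against 26.2% of all gene-by-class tests there. These classes come from the same libraries, so they are not separate observations. Macrophage-like cells had 23.3, 13.4 and 40.3 scaled CPM in OSA and 4.66 in control, from 80, 35 and 419 UMIs in OSA and 7 in control (log2 difference 2.51 ± 0.83, edgeR adjusted p = 0.203). Leaving out an OSA library gave differences of 1.97 to 2.79. Here too the clusters differed. Ltbp3 was at 38.2, 32.7 and 35.5 CPM in the Ms4a7-led cluster and at 43.4 and 43.0 CPM in OSA libraries 1 and 3 in the Gpnmb-led cluster, where the control had 0 cells and 1 cell. In the Folr2-led cluster it was at 17.1, 1.73 and 4.30 CPM in OSA and 7.05 CPM in control, from 1 to 8 UMIs a library. Over clusters with at least 10 control cells the log2 difference was 0.87 (edgeR adjusted p = 0.882). Endothelial-like cells had 5.05, 7.72 and 10.8 scaled CPM in OSA and 3.77 in control (log2 difference 1.04 ± 0.40, edgeR adjusted p = 0.953). The difference there was 0.74 to 1.29 with an OSA library left out. Fibroblast markers there summed to 453, 500 and 687 CPM in OSA and 303 CPM in control, none at 0, and their part was not tested. Fibroblast-like cells had 64.0, 58.5 and 102 scaled CPM in OSA and 48.8 in control (0.62 ± 0.32), and tenocyte-like cells 117, 132 and 184 in OSA and 96.5 in control (0.58 ± 0.29). Satellite-like cells had 29.0, 41.6 and 46.4 scaled CPM in OSA and 43.4 in control, on both sides of the control (-0.17 ± 0.31). The log2 difference was 0.44 ± 0.29 in Schwann-like and 0.21 ± 0.28 in mural-like cells.

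**Figure D5:**
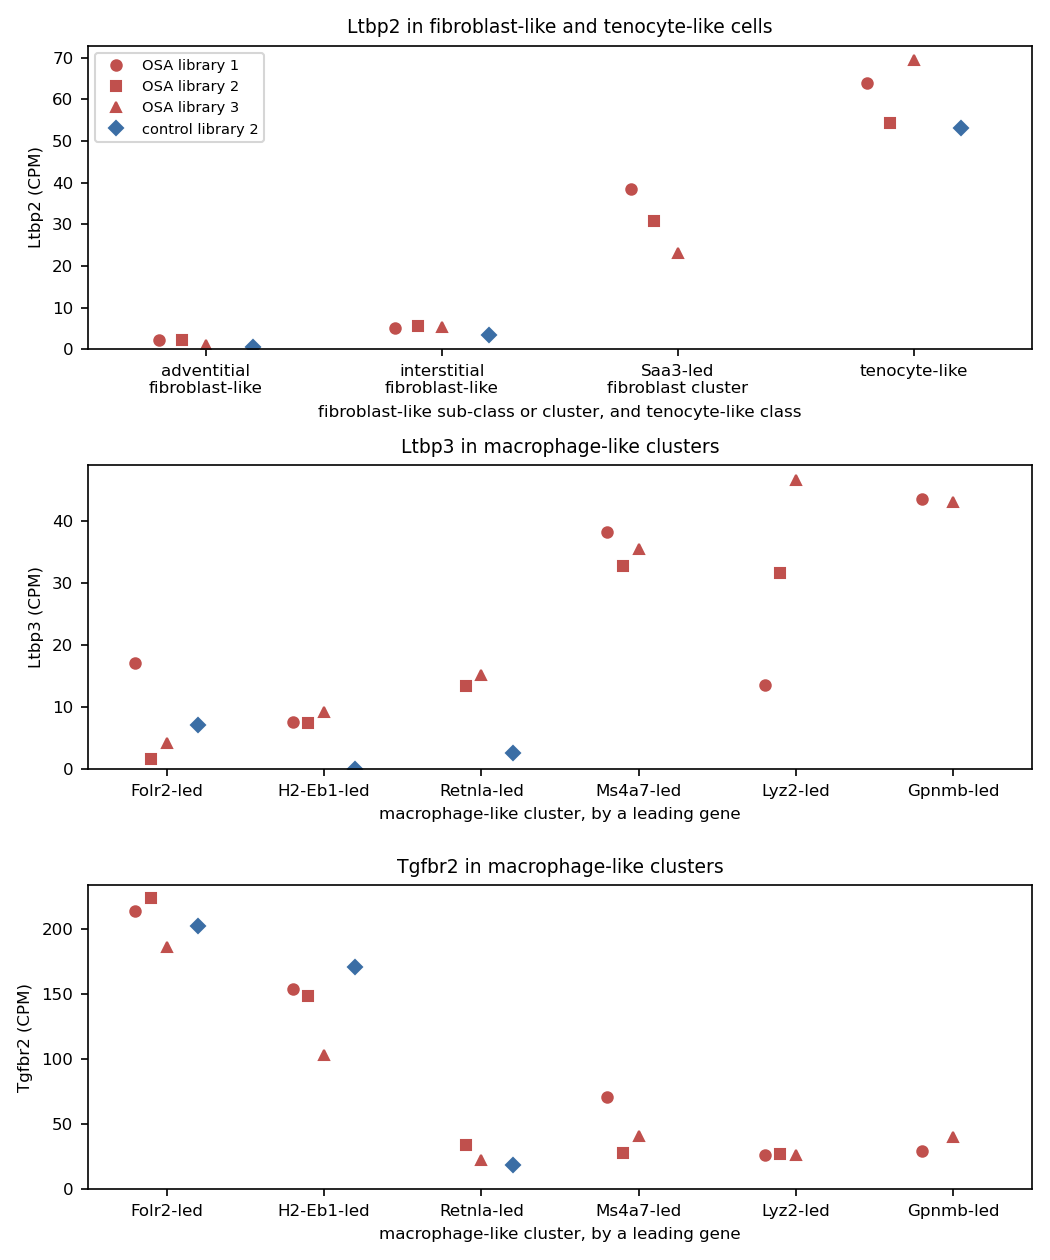
Ltbp2 in fibroblast-like sub-classes, the Saa3-led cluster and tenocyte-like cells, and Ltbp3 and Tgfbr2 in 6 macrophage-like clusters (CPM, linear from 0). Red points are OSA libraries 1 to 3, the blue diamond is the control, and a library with under 20 cells in a cluster is not drawn, so the Saa3-led, Ms4a7-led, Lyz2-led and Gpnmb-led clusters have no control point; Ltbp3 reaches 46.6 CPM in the Lyz2-led cluster and Tgfbr2 214 CPM or more in the Folr2-led cluster of OSA libraries 1 and 2.

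Ltbp1 in endothelial-like cells had 21.7, 19.3 and 13.2 scaled CPM in OSA and 27.9 in control (log2 difference -0.62 ± 0.25, edgeR adjusted p = 0.953). All OSA values were lower, and leaving out an OSA library gave differences of -0.77 to -0.44. In the other 6 classes its log2 differences lay between -0.35 and 0.22. Ltbp4 had log2 differences between 0.08 and 0.40 in the 7 classes, all positive and none past the threshold. The OSA libraries lay on both sides of the control in 5 of these classes, fibroblast-like and endothelial-like cells among them.

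Whether the OSA minus control difference varied between the 7 classes was tested by a class-by-group term with library as a block. None of the 10 genes passed, against 1.07% of 16377 genes. The lowest edgeR adjusted p values were 0.145 for Ltbp3 and 0.164 for Tgfbr3. Without OSA replicate 2 Ltbp3 and Tgfbr2 passed, in a fit where 3.91% of 16304 genes did. At an unadjusted p under 0.05 the fit of all libraries had 5 of the 10, against 11.7% of all genes.

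The rest of the pathway was read from 5 lists of 78 genes in all, in the same fits. Of 20 storage and activation partners, 17 were tested in macrophage-like cells, where 1.46% of 12151 genes passed, and 4 of them rose while none fell. Their median log2 difference was 1.64, against 0.04 for all genes of the class. The list holds stromal matrix genes, and the 7 fibroblast markers summed to 449, 572 and 614 CPM in these OSA cells and 276 CPM in control ones, whose part was not tested. Thbs1, a thrombospondin that frees latent TGF-beta, had 70.1, 57.6 and 85.7 scaled CPM in OSA and 5.99 in control (log2 3.57 ± 0.47, edgeR adjusted p = 0.00329). Mmp14, a membrane-bound matrix protease, had 133, 90.3 and 203 scaled CPM in OSA and 13.97 in control (3.35 ± 0.56, edgeR adjusted p = 0.0231). Itgav, the integrin alpha chain shared by TGF-beta-activating integrins, had 148, 146 and 143 scaled CPM in OSA and 42.6 in control (1.77 ± 0.33, edgeR adjusted p = 0.0175). Emilin1, an elastic fibre protein that restrains the processing of Tgfb1 precursor, had 19.2, 20.4 and 24.7 scaled CPM in OSA and 4.66 in control (2.21 ± 0.51, edgeR adjusted p = 0.0472). All OSA libraries lay above the control for each.

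The 4 calls were recomputed over the clusters that the control also held, and with libraries left out. Over clusters with at least 10 control cells Itgav passed at 1.72 (edgeR adjusted p = 6.76e-05), while Thbs1 (1.29, edgeR adjusted p = 0.524), Mmp14 (2.09, edgeR adjusted p = 0.419) and Emilin1 (1.35, edgeR adjusted p = 0.569) did not. Without OSA replicate 1 Thbs1 alone of the 4 passed, and without OSA replicate 3 all but Emilin1 did. At resolution 2 Itgav, Mmp14 and Emilin1 were lost, and Emilin1 was also lost with DESeq2 (DESeq2 adjusted p = 0.0726), after thinning and with doublets kept. None of the list passed in the other 6 larger classes, where its median lay between 0.11 and 0.44, against 0.01 to 0.02 for all genes.

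Of 20 TGF-beta target genes, 1 rose in macrophage-like cells and 2 in Schwann-like cells, where 0.149% of 12731 genes passed. Timp1, an inhibitor of matrix proteases, had 18.3, 31.5 and 42.0 scaled CPM in OSA macrophage-like cells and 3.33 in control ones (log2 3.21 ± 0.69, edgeR adjusted p = 0.0472). The call was lost over clusters with at least 10 control cells (3.08, edgeR adjusted p = 0.288), with doublets kept and at resolution 2. In Schwann-like cells Timp1 had 16.4, 14.4 and 44.3 scaled CPM in OSA and 5.39 in control (2.10 ± 0.42, edgeR adjusted p = 0.000746). Col3a1, a fibrillar collagen and itself a fibroblast marker here, had 200, 117 and 247 scaled CPM in OSA Schwann-like cells and 85.4 in control ones (1.13 ± 0.25, edgeR adjusted p = 0.00758). Neither Schwann-like call held without OSA replicate 3, with doublets kept or with DESeq2 (DESeq2 adjusted p = 0.828 for both). Timp1 was also lost with at least 10 counts in every library, and Col3a1 without OSA replicate 1. The target list's median was 0.62 in endothelial-like and 0.45 in fibroblast-like cells, against 0.01 and 0.02 for all genes, with 0 of 20 called in each and no gene of these classes called by edgeR (0.0%), while DESeq2 called 0.236% and 0.186%. The median was -0.05 in satellite-like and 0.14 in tenocyte-like cells. Col1a1, Col1a2 and Col3a1 are in both this list and the fibroblast markers, which summed to 453, 500 and 687 CPM in OSA endothelial-like cells and 303 CPM in control ones, and whose part was not tested. The lists of 16 SMAD and intracellular regulators, 11 other receptors and 11 other ligands of the superfamily had 0 calls in the 7 larger classes.

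In T and NK-like cells, where 3.08% of 6875 genes passed, Smad7, an inhibitory SMAD, fell. It had 377, 316 and 345 scaled CPM in OSA and 710 in control (log2 -1.03 ± 0.28, edgeR adjusted p = 0.0122). The call was lost with DESeq2 and without OSA replicate 2. The class was made up of different clusters in the groups. The cluster led by Scart1 and Trdc held 24, 24 and 56 OSA barcodes and 4 control barcodes, and the cluster led by Gzma held 12, 11 and 15 OSA barcodes and 39 control barcodes, doublets included, and the part of this makeup in the calls of the class was not tested. Furin, the protease that cleaves TGF-beta precursors, had 170, 239 and 332 scaled CPM in OSA and 50.9 in control (2.29 ± 0.38, edgeR adjusted p = 9.20e-07), and it passed under all 10 alternatives. Itgb3, Sparc and Ccn1 also rose there, with log2 differences of 2.09, 1.14 and 2.60, and none of these calls held with DESeq2 or without OSA replicate 2. Itgb3 was also lost without OSA replicate 3. Sparc and Ccn1 were also lost without OSA replicate 1, with doublets kept and with no filter on low counts. The summed fibroblast markers in these cells were 400, 510 and 602 CPM in OSA and 286 CPM in control, the summed endothelial markers were 1700, 982 and 634 CPM in OSA and 803 CPM in control, and their part was not tested. Tgfb1 and Tgfbr2, high in this class, had log2 differences of -0.32 ± 0.29 and -0.37 ± 0.29. In lymphatic endothelial-like cells, where 0.153% of 9812 genes passed, the targets Col1a2 (1.85 ± 0.38, edgeR adjusted p = 0.0104) and Col3a1 (1.51 ± 0.36, edgeR adjusted p = 0.0462) rose, and neither passed with DESeq2. Both calls were also lost with at least 10 counts in every library, with doublets kept and after thinning. Col3a1 was lost as well with RLE scaling, without OSA replicate 2 and without OSA replicate 3. Both are fibroblast markers, whose median level in this class was 3.29%, 5.45% and 4.64% of the fibroblast-like level in OSA and 2.62% in control. The part of these transcripts was not tested.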

How the data were processed

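The authors deposited 10x Genomics matrices of UMI counts per gene and barcode, made with Cell Ranger 9.0.1 per the file headers and on build GRCm39 per the submitters' processing notes. From these counts, barcodes with at least 300 genes and 500 UMIs and at most 20% mitochondrial UMIs were kept, and Scrublet doublets (expected rate 0.1) were removed. Cells were clustered with Scanpy 1.11.5 (2010 variable genes without the 10 genes described, 30 principal components, 15 neighbours, Leiden resolution 1). A cluster was named when at least 3 markers of a type were in at least 0.15 of its cells and at least 2-fold above the rest. It stayed unnamed where doublets exceeded 50% (40% for immune types), or where the markers of another lineage exceeded 25% of their level in that lineage. Counts were summed per library and class, so that cells were not replicates, and tested with edgeR 4.0.16 (filterByExpr, TMM, robust quasi-likelihood, two-sided, Benjamini-Hochberg) and 2 residual degrees of freedom. DESeq2 1.42.0 was an alternative.

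The 10 genes and all lists were chosen with earlier results of these data known. All 10 genes are named in each larger class where they were tested, in full or by range. List genes are named where they passed, at most 6 a class. In simulated macrophage-like counts, 86% of genes changed 4-fold and 8% of genes changed 2-fold were recovered, and in fibroblast-like counts 99% and 40%. The changed genes were drawn only from genes above a minimum mean CPM. Some tests of the 10 genes lay below it, such as Ltbp2 in fibroblast-like and Tgfb3 in macrophage-like cells, and recovery at such levels was not simulated. Promoter windows came from RefSeq, where 8 of the 10 genes were matched. Tgfb3 and Tgfbr3 were not. Other alternatives tried were RLE scaling, other count filters, doublets kept, resolution 2, thinning to equal totals and leaving out each OSA library. Some genes of the likeness ranking are not reported here.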

Additional observations from a re-analysis of the deposited data

How the results depend on the processing

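No paired analysis was possible because the libraries analysed share only replicate number 2 between groups. Each of the 8 gene and class pairs with an unadjusted p under 0.05 kept its direction under every alternative run. With no filter on low counts, Ltbp2 in fibroblast-like cells (1.75) and Ltbp3 in macrophage-like cells (2.59) alone of the 10 genes passed in the 7 larger classes. Calls over all genes of both classes rose without the filter as well. Without OSA replicate 1, Ltbp2 in fibroblast-like cells and Ltbp1 and Ltbp3 in endothelial-like cells passed. Without OSA replicate 2, Ltbp2 in fibroblast-like cells and Ltbp3 and Tgfbr2 in macrophage-like cells passed. Calls over all genes of the 7 classes rose in these fits too. Without OSA replicate 3 none of the 10 genes passed. In the interaction fit Ltbp3 and Tgfbr2 passed only without OSA replicate 2. Leaving out an OSA library gave log2 differences of -0.77 to -0.44 for Ltbp1 and 0.74 to 1.29 for Ltbp3 in endothelial-like cells. The differences were 1.30 to 2.01 for Ltbp2 in fibroblast-like cells, and 1.97 to 2.79 for Ltbp3 and -1.05 to -0.60 for Tgfbr2 in macrophage-like cells. Over all genes of the 7 classes, 213 calls became 130 with at least 10 counts per library, 1267 with no filter, 393 with DESeq2, 76 at resolution 2, 385 after thinning and 633 to 1808 without an OSA library. In the 3 smaller classes 227 calls became 93 with at least 10 counts, 51 with DESeq2 and 215 to 388 without an OSA library. Pathway calls without an OSA library were 0 to 2 for SMAD regulators, 3 to 17 for storage partners (4 with all libraries), 0 to 1 for other receptors, 0 to 2 for other ligands and 9 to 19 for targets (3 with all libraries). Clusters with at least 10 control cells gave 18 fibroblast-like calls (0 in all clusters) and 75 macrophage-like calls (178), and keeping mixed barcodes gave 8 mural-like calls (4). Apart from the smaller set of cells or libraries, the cause was not tested. With 1 control library its own error cannot be seen, and 7 Ltbp3 UMIs in control macrophage-like cells limit that value.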

Other observations

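The genes most like each member over 40 sums of a class in a library were found by Pearson's r of log2(CPM + 1) among 9620 genes. These points share libraries, classes and depth, so r is a description. Tgfb1 was most like Shisa5 (0.860), Fli1 (0.853), a transcription factor of endothelial and blood cells, and Ptpn18 (0.839). Arhgap42 (0.922) and Cacna2d1 (0.921) were among the 3 genes most like Tgfb2. Tgfb3 was most like its fellow ligand Tgfb2 (0.915), then Pkd1 (0.910) and Sgip1 (0.908). Tgfbr3 was most like Tuba1a (0.938), Itih5 (0.911) and Zfhx4 (0.899), and Ltbp4 was most like Ackr3 (0.9505), S100a16 (0.922) and Sned1 (0.913). Ror1 (0.877) and Sox9 (0.859) were among the 3 genes most like Ltbp1. Ltbp3 was most like P3h4 (0.902), Sphk1 (0.896) and Nenf (0.881). The receptors Tgfbr1 and Tgfbr2 had lower values, with 1600010M07Rik (0.823) the nearest to Tgfbr1 and Marchf3 (0.769) the nearest to Tgfbr2.

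A cluster of 3374 barcodes led by the pericyte genes Higd1b and Rgs5 was left out of the mural-like class. Its endothelial markers stood at 67.5% of their endothelial-like level, and its median UMI count was 1.58 times that of its libraries.

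In the sub-classes, Tgfbr1 in adventitial fibroblast-like cells had 58.6, 81.5 and 77.2 scaled CPM in OSA and 50.4 in control (log2 difference 0.53 ± 0.25). Ltbp4 in myelinating Schwann-like cells had 49.0, 68.5 and 61.8 scaled CPM in OSA and 34.4 in control (0.75 ± 0.28). In both, every OSA library lay above the control, and neither passed (edgeR adjusted p = 0.980 and 0.700). They are among the 3 of 57 sub-class tests with an unadjusted edgeR p under 0.05 (5.26%, against 4.4% of all tests).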
